A study of Mus musculus with 6 samples.

Results

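The genes of synaptotagmins and of the SNARE machinery that fuses vesicles with membranes were examined in bulk RNA-seq of total RNA from mouse L4/5 DRG, the lumbar dorsal root ganglia that house the cell bodies of the sensory neurons of the hind limb. Members were taken by symbol: every numbered synaptotagmin (Syt), syntaxin (Stx), VAMP and complexin (Cplx) gene, the numbered syntaxin-binding proteins (Stxbp), Snap23, Snap25, Snap29, Snap47 and Nsf. This gave 55 of the 48401 genes listed. The ganglia came from male C57BL/6J mice aged 8 weeks given siRNA by the intrathecal route, that is, into the cerebrospinal fluid of the lower back. In 3 libraries the siRNA was siCLAP, against the long intergenic noncoding RNA CLAP, which the study's title links to itch, and in 3 it was siNC, taken here as the control. All mice had thus been injected with an siRNA. The sources used here give neither the dose, nor the time after injection, nor whether each library came from a separate mouse. The p-values therefore measure only the spread between these libraries, which may be technical. The level of CLAP was not analysed here, so the knockdown was not checked.

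SNARE proteins are short coiled-coil proteins on vesicles (VAMPs) and on target membranes (syntaxins and the SNAP25 family) that zip together and pull the membranes into fusion. In neurons Sec1/Munc18 proteins guide their assembly, complexins hold the assembled complex ready, synaptotagmins with calcium-binding C2 domains start fusion when calcium enters, and the ATPase Nsf takes used complexes apart. Sensory neurons of the ganglion use this machinery to release glutamate and neuropeptides at their terminals in the spinal cord and skin and to place receptors and channels in the membrane.

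In siCLAP ganglia 1 member fell, Syt6, at 1.26-fold below siNC. The remaining 50 of the 51 members tested did not pass, and their estimated log2 fold changes lay between -0.50 and 0.27. Estimates were negative for most of the calcium-sensor synaptotagmins, for Stx1a and for Cplx2, and positive for Vamp1, Vamp4, Vamp7, Cplx1 and Snap25. The abundant genes Vamp2, Nsf and Syt11 had estimates within 0.04 of 0 on the log2 scale. In bulk tissue, fewer cells of a type and less RNA per cell cannot be told apart.

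The sequences just upstream of 4 of the 5 members with the smallest p are shown first. Of these genes only Syt6 passed the test, and the others are shown because they came next in order of p. Each is the 250 bases before an annotated transcription start in RefSeq (GRCm38.p6), written 5′ to 3′ on the gene's strand. Capitals mark matches on either strand to the GC box GGGCGG, the CCAAT box CCAAT and the E-box CACGTG, and no marked matches overlap. RefSeq windows were available for 42 of 55 members, and Syt7, the fifth of these genes, is named only.
Syt6, most upstream start, chr3:103574995-103575244, plus strand: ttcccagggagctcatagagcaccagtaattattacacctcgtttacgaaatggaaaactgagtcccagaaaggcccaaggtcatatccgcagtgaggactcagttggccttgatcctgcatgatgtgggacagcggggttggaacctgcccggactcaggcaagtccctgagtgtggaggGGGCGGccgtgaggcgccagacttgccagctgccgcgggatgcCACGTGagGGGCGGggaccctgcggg
Syt6, most downstream start, chr3:103575876-103576125, plus strand: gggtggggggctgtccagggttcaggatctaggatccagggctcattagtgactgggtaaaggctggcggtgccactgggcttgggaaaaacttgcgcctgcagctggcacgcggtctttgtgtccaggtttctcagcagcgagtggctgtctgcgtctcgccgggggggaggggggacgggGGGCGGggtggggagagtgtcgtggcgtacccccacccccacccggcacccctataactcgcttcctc
Stx1a, single start, chr5:135023232-135023481, plus strand: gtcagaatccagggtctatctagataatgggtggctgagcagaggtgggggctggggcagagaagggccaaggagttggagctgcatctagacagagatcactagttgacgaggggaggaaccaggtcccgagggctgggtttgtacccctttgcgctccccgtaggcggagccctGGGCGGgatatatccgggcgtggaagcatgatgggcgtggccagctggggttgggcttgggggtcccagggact
Syt1, upstream start, chr10:109010976-109011225, minus strand: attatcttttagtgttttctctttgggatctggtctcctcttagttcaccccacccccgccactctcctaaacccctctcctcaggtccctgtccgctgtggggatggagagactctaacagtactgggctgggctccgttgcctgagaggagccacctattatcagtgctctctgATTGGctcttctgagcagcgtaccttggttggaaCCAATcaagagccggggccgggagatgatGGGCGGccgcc
Vamp1, single start, chr6:125215331-125215580, plus strand: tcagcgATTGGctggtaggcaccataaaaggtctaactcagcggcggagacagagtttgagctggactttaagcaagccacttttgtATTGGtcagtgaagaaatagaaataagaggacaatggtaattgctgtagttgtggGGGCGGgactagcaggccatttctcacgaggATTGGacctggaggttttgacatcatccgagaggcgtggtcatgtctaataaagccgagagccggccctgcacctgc
The upstream Syt6 window held 2 GC boxes and 1 E-box and the downstream one 1 GC box. The Vamp1 window held 3 CCAAT boxes and the upstream Syt1 window 2, while those of Syt6 and Stx1a held none. The other Syt1 window, not shown, held 0 GC boxes and 0 CCAAT boxes. None of these 5 windows held the cyclic AMP response element TGACGTCA, the AP-1 site TGANTCA or the TATA box TATAAA. A GC box was found in 64.6% of 48 windows of tested members, against 32.7% of all 32851 RefSeq windows, and an E-box in 14.6% against 6.02%. A CCAAT box was found in 33.3% of the member windows and 33.8% of all windows. GC content had a median of 62.6% in the member windows and 52.4% in all windows. The 48 windows belong to 39 tested genes, so some genes, such as Syt6, have several windows. The set of all windows includes genes of any level, so the sets are unlike. Windows of all tested genes were not compared. These matches are descriptions of the letters and were not tied to any difference in expression.

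The libraries held 21386768 to 46317735 counts, with 26004 to 27505 genes above 0. The members took 1.06% to 1.07% of counts in the siCLAP libraries and 1.03% to 1.07% in the siNC libraries. Sensory neuron genes were abundant in all libraries, with Tubb3 at 3705 to 4002 TPM in siCLAP and 3528 to 3815 TPM in siNC, whereas the 7 markers of spinal cord neurons and central glia summed to 7.38 to 10.2 TPM in siCLAP and 6.74 to 7.90 TPM in siNC. Of these, Mnx1, Chat, Mog and Olig2 stayed below 1 TPM in every library (Olig2 at 0 in 5 of 6), while Slc5a7, Gfap and Aqp4 reached 1.98, 3.72 and 5.38 TPM at most. TPM counts transcripts per length of gene and is scaled to the same sum in every library, so that genes can be compared. A list of 7 interferon-induced genes summed to 749 TPM in siCLAP-2 and 710 TPM in siNC-3, against 436 to 471 TPM in the other siCLAP libraries and 447 to 452 TPM in the other siNC libraries. A list of 5 leptomeningeal genes, of the membranes around the cord and roots, summed to 6.31 to 16.8 TPM in siCLAP and 23.6 to 108 TPM in siNC.

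**Figure D1:**
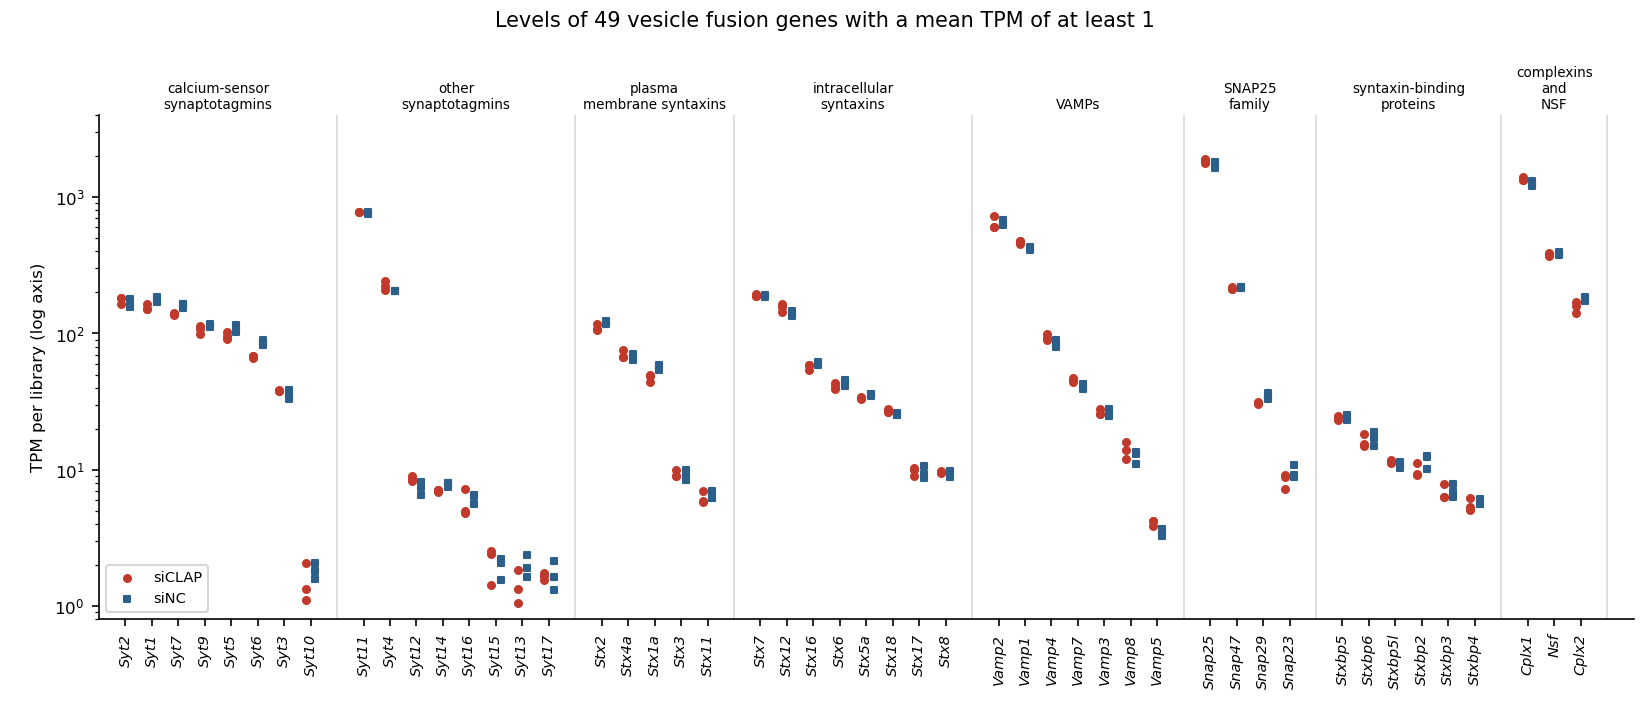
Levels of 49 of the 51 members with a mean TPM of at least 1, grouped by role. Each point is the TPM of one library on a log axis, siCLAP as red circles and siNC as blue squares. Snap25 and Cplx1 stood highest, at mean levels of 1777 and 1306 TPM, and the 2 groups lay close together for most genes.

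Levels spanned a wide range. Snap25, the neuronal plasma membrane SNARE that contributes a pair of helices to the complex, had the highest mean level at 1777 TPM over the 6 libraries. Cplx1 followed at 1306 TPM. Others among the 10 highest were Syt11 at 774, Vamp2 at 647, Vamp1 at 445, Nsf at 386, Snap47 at 216, Syt4 at 214 and Stx7 at 190 TPM. The 10 highest held 75% to 77.4% of the summed TPM of the members in each library. In all, 24 members had a mean of at least 50 TPM, 22 lay between 5 and 50, 5 between 1 and 5, and 4 below 1.

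Within families the same gene led in all 6 libraries. Snap25 held 86.1% to 88.2% of the TPM of its family and Cplx1 86.7% to 90.4% of the complexins. Vamp2 held 47.6% to 53.1% of the VAMPs, Syt11 41.0% to 43.5% of the synaptotagmins and Stx7 only 19.9% to 20.5% of the syntaxins. The ubiquitous counterparts of the neuronal SNAREs were far lower, with Snap23 at a mean of 9.01 TPM and Vamp3 at 26.4 TPM.

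The 4 members below the minimum of 1 TPM were Syt8, Cplx3, Cplx4 and Stx19, and they were not tested. Syt8 had 0 counts in all 6 libraries, which allows up to 3 counts or, scaled to library totals, 0.0648 to 0.140 CPM, for counting error only. Cplx3, a complexin of retinal ribbon synapses, had 1 to 7.5 counts, and Cplx4 and Stx19 had at most 1. Stxbp3 had the same count in every library as a second row named Stxbp3a, an alternative symbol that the rule does not take in, so its level of 6.82 ± 0.883 TPM in siCLAP and 7.04 ± 0.808 TPM in siNC (SD, n = 3 each) is uncertain.

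For the comparison of siCLAP with siNC, which asks what knockdown of CLAP does to DRG transcripts, edgeR's quasi-likelihood test was run on all 19141 genes with a mean of at least 1 TPM. Of the members 1 of 51 had a Benjamini-Hochberg adjusted p below 0.05, against 0.293% of all tested genes (0.0731% higher and 0.219% lower in siCLAP). At an adjusted p below 0.1 there were 2 members, Syt6 and Syt7, against 2.80% of all tested genes. At an unadjusted p under 0.05 there were 17 members, 8 higher and 9 lower in siCLAP, which is 33.3% of those tested against a background of 17.0% (8.22% higher and 8.75% lower). High-count genes reached this level more often, and among tested genes with a mean of at least 50 TPM, a limit chosen after the values were seen, it was 12 of 24 members (50%) against 27.2%. The TPM values of the groups did not overlap for 16 members (31.4%, 7 higher and 9 lower), against 21.6% of all tested genes (9.39% higher and 12.2% lower). With a mean of at least 50 TPM, they did not overlap for 9 of 24 members (37.5%), against 29.8% of the tested genes above this limit. The median log2 fold change over the tested members was 0.00087, against -0.0018 over all genes. The 17 of 51 members at an unadjusted p under 0.05 became 7 of 51 without siNC-3 and 9 of 51 without siCLAP-1. The shares over all tested genes were then 11.2% and 10.2%. Leaving out siNC-1, siNC-2, siCLAP-2 or siCLAP-3 gave 17, 14, 15 and 16 of 51 members. The shares over all tested genes were then 13.2%, 19.6%, 12.6% and 21.3%. The size of the members' excess over the background thus varied with the library left out.

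**Figure D2:**
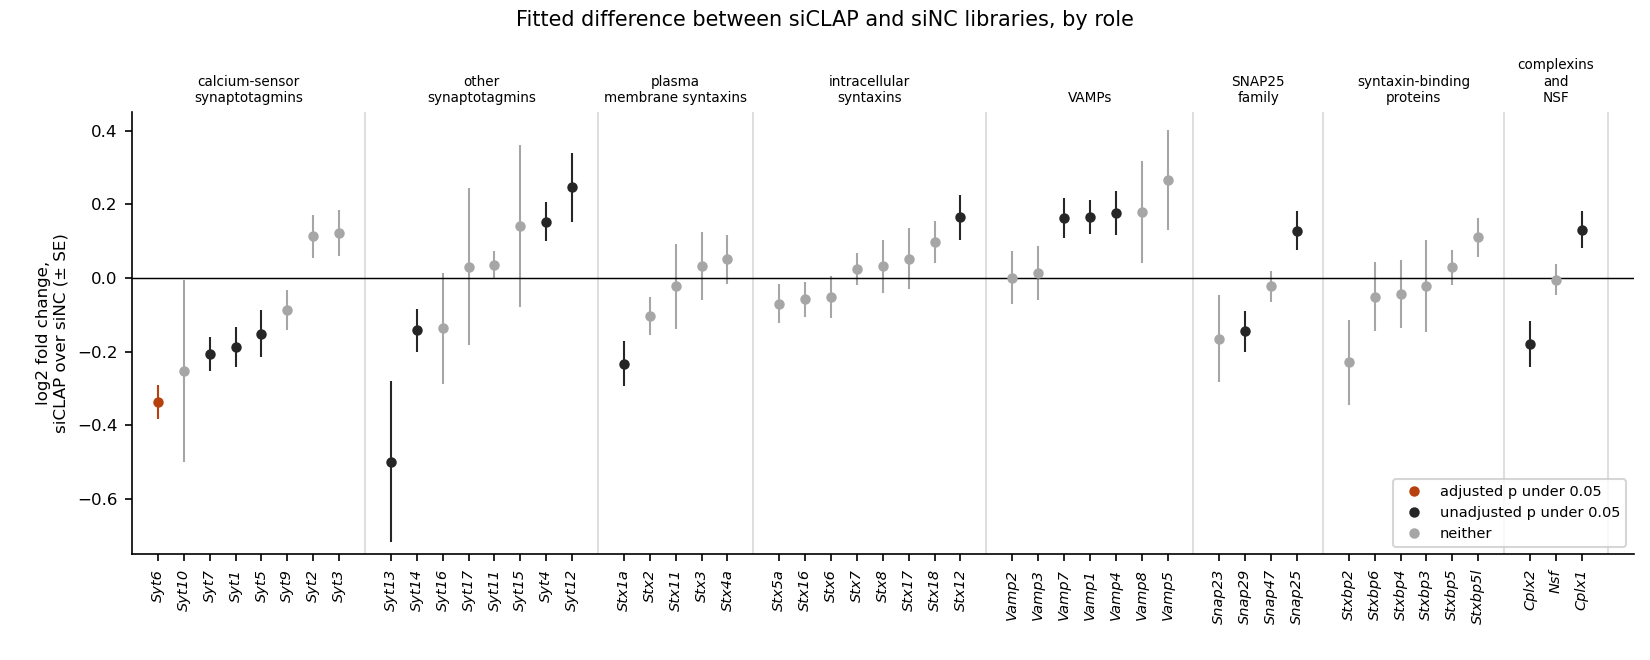
Fitted log2 fold change of siCLAP over siNC for 49 of the 51 tested members, grouped by role, with bars of 1 standard error. Syt6, in orange, is the member with an adjusted p under 0.05, black points have an unadjusted p under 0.05 and grey points neither. All 7 VAMP estimates lie at or above 0, though those of Vamp2 and Vamp3 turn sign in some alternatives and that of Vamp2 with upper quartile scaling, and 6 of 8 calcium-sensor synaptotagmins lie below it. Over all tested genes 9473 of 19141 estimates lie above 0.

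Counts by role follow, for roles chosen with earlier results of these data known. Over all tested genes 0.293% passed in edgeR, 17.0% had an unadjusted p under 0.05 in edgeR and DESeq2, an alternative test, called 3.18%. Among the calcium-sensor synaptotagmins, those whose C2 domains bind calcium, Syt6 fell and 7 of 8 members did not pass. Syt6, of one subgroup with Syt3 and Syt10 and best known for its part in the acrosome reaction of sperm, lies at chr3:103575231-103645569 (mm10, GENCODE M21). It was at 68.5, 66.0 and 68.5 TPM in the siCLAP libraries, given throughout by replicate number, against 86.8, 82.5 and 90.1 TPM in the siNC libraries. Each siCLAP library lay below each siNC library, and the gap between the groups was wider than the spread within either. The log2 fold change was -0.34 ± 0.05 (SE; adjusted p = 0.0225, edgeR, lower in 3 of 3 siCLAP libraries). The call ended without siNC-3 (adjusted p = 0.109), without siCLAP-1 (0.126), without both interferon-high libraries (0.155) and in limma on log2(TPM + 0.5) (0.263), while the log2 fold change stayed between -0.36 and -0.29 over the 20 alternatives. On the opposite strand 8.67% of its exon bases overlap the pseudogene Atg4a-ps, which was listed at no more than 0.353 TPM in any library.

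The sensors of synaptic release came next. Syt7, a high-affinity sensor of slow and asynchronous release and of lysosome exocytosis, was at 138, 137 and 140 TPM in the siCLAP libraries, against 154, 165 and 165 TPM in the siNC libraries. Syt1, the sensor of fast synchronous release in forebrain synapses, was at 151, 164 and 151 TPM in siCLAP, against 169, 186 and 180 TPM in siNC. For both genes the groups did not overlap, yet neither passed (log2 fold change -0.21 ± 0.05 and -0.19 ± 0.05, adjusted p = 0.0790 and 0.127 in edgeR). DESeq2 called both (adjusted p = 0.00265 and 0.0278). On the strand opposite to Syt7, Gm26859 covers 5.13% of its exon bases, at 5.6 to 8.6 TPM in siCLAP and 7.0 to 9.5 TPM in siNC. The kit does not mark strand, so reads of that overlap cannot be assigned to either gene. Syt2, the fast sensor of hindbrain and neuromuscular synapses, had its estimate on the other side of 0. It was at 183, 165 and 181 TPM in siCLAP and 179, 156 and 159 TPM in siNC, so that the groups overlapped (log2 fold change 0.11 ± 0.06, adjusted p = 0.347).

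The other calcium-sensor genes did not pass either. Syt5 averaged 96.9 ± 5.71 TPM in siCLAP and 109 ± 6.64 TPM in siNC (SD, n = 3 each). Syt9, a further fast sensor, was at 99, 113 and 108 TPM in siCLAP and 111, 117 and 116 TPM in siNC (-0.09 ± 0.06). Both had overlapping groups. Syt3 stood at 38.2 ± 0.419 TPM in siCLAP and 35.4 ± 2.88 TPM in siNC. Syt10, with 20.5 to 59 counts a library, had an estimate of -0.25 ± 0.25. Summed over the 8 genes, the level was 774 to 787 TPM in the siCLAP libraries and 842 to 859 TPM in the siNC libraries, without overlap, and 6 of 8 estimates were below 0, also in each alternative that tested all 8 genes. With a minimum mean of 5 TPM, which leaves out Syt10, 5 of 7 were below 0. Over all tested genes 9668 of 19141 estimates were below 0.

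Of the synaptotagmins that do not act as calcium sensors or for which this is not established, 0 of 8 tested passed in edgeR, 4 had an unadjusted p under 0.05 and DESeq2 called 0. Syt11, which lacks calcium binding and acts in membrane traffic, was the most abundant synaptotagmin and was at 785, 779 and 775 TPM in siCLAP and 784, 766 and 756 TPM in siNC (log2 fold change 0.04 ± 0.04). Syt4, found on dense-core vesicles, was at 221, 242 and 210 TPM in siCLAP, against 204, 204 and 204 TPM in siNC. The siNC libraries were almost equal and each siCLAP library lay above them, but the estimate of 0.15 ± 0.05 did not pass (adjusted p = 0.183). Opposite to Syt4 lies Gm26658, covering 14.5% of its exon bases, at 70.6 to 84.7 TPM in siCLAP and 80.7 to 87.9 TPM in siNC. Syt12 was low and higher in each siCLAP library, at 8.95, 8.53 and 8.28 TPM against 8.06, 6.57 and 7.47 TPM in siNC (log2 fold change 0.25 ± 0.09, adjusted p = 0.218). On the strand opposite to Syt12, A930001C03Rik covers 17.2% of its exon bases, at 4.8 to 5.8 TPM in siCLAP and 4.4 to 5.5 TPM in siNC. Reads of these overlaps, on Syt4 and on Syt12, cannot be assigned to either gene of the pair, since the kit does not mark strand. Syt14 averaged 7.0 ± 0.121 TPM in siCLAP and 7.83 ± 0.260 TPM in siNC, again without overlap. Syt13, with 44.5 to 157.5 counts a library, had the most negative estimate of the members at -0.50 ± 0.22 but overlapping groups. Syt15, Syt16 and Syt17 averaged under 7 TPM in both groups, with estimates of 0.14, -0.14 and 0.03.

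**Figure D3:**
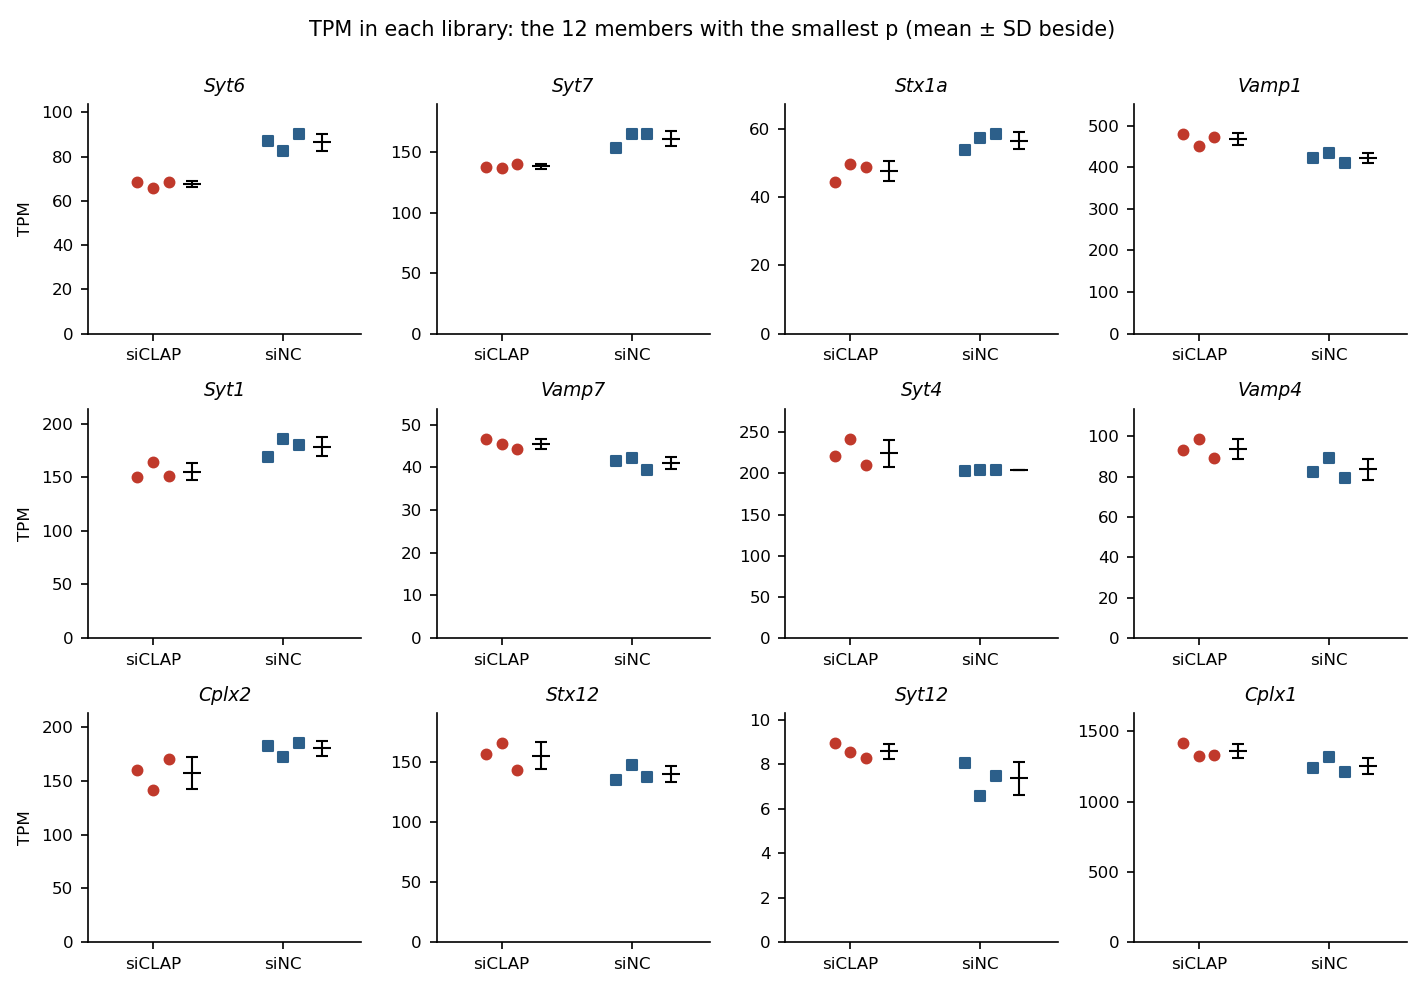
TPM in each library for the 12 members with the smallest p, siCLAP left (red circles) and siNC right (blue squares), with the mean ± SD (n = 3) beside each group and axes from 0. Syt6 shows the gap of 68.5 TPM at most in siCLAP against 82.5 TPM at least in siNC, and Vamp4 and Stx12 show overlapping groups.

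The plasma membrane syntaxins, the target SNAREs of exocytosis, held 0 of 6 tested genes that passed in edgeR, 1 with an unadjusted p under 0.05 and 1 called by DESeq2. That gene was Stx1a, the neuronal syntaxin of synaptic release, at 44.3, 49.5 and 48.8 TPM in siCLAP, against 53.7, 57.3 and 58.3 TPM in siNC. All siCLAP libraries were lower (log2 fold change -0.23 ± 0.06, adjusted p = 0.101 in edgeR and 0.0432 in DESeq2). Stx2 averaged 111 ± 6.43 TPM in siCLAP and 120 ± 2.65 TPM in siNC and Stx4a 69.9 ± 5.07 and 68.1 ± 3.46 TPM in those groups. Stx3 and Stx11, which serve epithelial cells and cytotoxic granules among others, lay below 10 TPM with estimates of 0.03 and -0.02.

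Syntaxins of the Golgi, endosomes, ER and autophagosomes also held no call in edgeR (0 of 8, 1 with an unadjusted p under 0.05, DESeq2 0). Stx12, an endosomal syntaxin, was at 156, 166 and 143 TPM in siCLAP and 135, 147 and 137 TPM in siNC, the lowest siCLAP library lying below the highest siNC library (0.17 ± 0.06, adjusted p = 0.211). Stx7, of late endosomes, was at 188, 196 and 188 TPM in siCLAP and 189, 193 and 185 TPM in siNC, with overlap. Its interval of 2 standard errors ran from -0.06 to 0.11 on the log2 scale. Stx5a (Golgi), Stx16 and Stx6 (trans-Golgi network) had estimates of -0.07, -0.06 and -0.05, and Stx8 (endosomes), Stx17 (autophagosomes) and Stx18 (ER) of 0.03, 0.05 and 0.10. On Stx18, 32.3% of the exon bases overlap genes of the opposite strand, among them Nsg1 at 106 to 118 TPM in siCLAP and 85.7 to 91.0 TPM in siNC. The kit does not mark strand, so reads of the overlap cannot be assigned to either gene.

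Among the VAMPs, the vesicle SNAREs, 0 of 7 passed in edgeR, 3 had an unadjusted p under 0.05 and DESeq2 called 1. Over all tested genes these shares were 0.293%, 17.0% and 3.18%. All 7 estimates were above 0, against 9473 of 19141 over all tested genes. In the alternatives 5 to 7 were above 0, where Vamp2 and Vamp3 turned sign, Vamp2 also with upper quartile scaling. Vamp1, the synaptobrevin of spinal and neuromuscular synapses, was at 479, 451 and 473 TPM in siCLAP, against 422, 434 and 409 TPM in siNC. The groups did not overlap (0.17 ± 0.05, adjusted p = 0.114 in edgeR and 0.0248 in DESeq2). Vamp7, the tetanus toxin-insensitive VAMP of late endosomes and neurite growth, was at 46.8, 45.6 and 44.3 TPM in siCLAP, against 41.5, 42.2 and 39.3 TPM in siNC. It too was higher in each siCLAP library (0.16 ± 0.05, adjusted p = 0.168). Vamp4, of the trans-Golgi network and endosomes, was at 93.0, 98.8 and 89.0 TPM in siCLAP and 82.1, 89.3 and 79.4 TPM in siNC, with a slight overlap (0.18 ± 0.06, adjusted p = 0.183).

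Vamp2, the main synaptobrevin, was at 604, 726 and 600 TPM in siCLAP and 629, 686 and 634 TPM in siNC. The siCLAP-2 library stood above all others and the remaining siCLAP libraries below all of siNC, so the mean of 644 ± 71.5 TPM in siCLAP and 650 ± 31.6 TPM in siNC hid a wide spread. The interval of 2 standard errors ran from -0.14 to 0.14 on the log2 scale, and the estimate was -0.09 without siCLAP-2. Vamp3, the ubiquitous cellubrevin, was at 27.9, 25.5 and 25.5 TPM in siCLAP and 24.7, 26.6 and 27.9 TPM in siNC, again with overlap. Vamp5 and Vamp8, low in ganglia, averaged 4.08 ± 0.191 and 13.9 ± 1.90 TPM in siCLAP, against 3.43 ± 0.214 and 12.5 ± 1.30 TPM in siNC.

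In the SNAP25 family 0 of 4 passed in edgeR, 2 had an unadjusted p under 0.05 and DESeq2 called 0. Snap25 was at 1859, 1771 and 1908 TPM in siCLAP and 1688, 1805 and 1628 TPM in siNC. The siNC-2 library lay above siCLAP-2, and the estimate of 0.13 ± 0.05 did not pass (adjusted p = 0.251). Snap29, which pairs with endosomal and autophagosomal syntaxins, averaged 30.9 ± 0.486 TPM in siCLAP and 34.6 ± 1.98 TPM in siNC, without overlap (-0.15 ± 0.06, adjusted p = 0.226). Snap47 was at 211, 211 and 218 TPM in siCLAP and 221, 221 and 215 TPM in siNC (-0.02 ± 0.04). Opposite to Snap47 lies Jmjd4, covering 11.6% of its exon bases, at 14.1 to 14.7 TPM in siCLAP and 13.7 to 14.8 TPM in siNC. Reads of that overlap cannot be assigned either. Snap23, the ubiquitous form, was at 8.90, 9.08 and 7.27 TPM in siCLAP and 8.78, 9.14 and 10.9 TPM in siNC, and its estimate of -0.16 ± 0.12 was less than 2 standard errors from 0.

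The syntaxin-binding proteins held no call and no unadjusted p under 0.05 in edgeR (0 of 7), and DESeq2 called 0. The tomosyns Stxbp5 and Stxbp5l, which inhibit SNARE assembly, averaged 24.2 ± 0.775 and 11.5 ± 0.281 TPM in siCLAP and 24 ± 1.08 and 10.8 ± 0.639 TPM in siNC. Stxbp2, the Munc18 form of blood and epithelial cells, had the largest estimate of this group at -0.23 ± 0.11, with 9.87 ± 1.10 TPM in siCLAP and 11.7 ± 1.41 TPM in siNC. Stxbp4 and Stxbp6 had estimates of -0.04 and -0.05.

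The 2 neuronal complexins had estimates of opposite sign. Cplx1 was at 1416, 1327 and 1331 TPM in siCLAP, against 1236, 1315 and 1208 TPM in siNC. Cplx2 was at 160, 141 and 170 TPM in siCLAP, against 183, 172 and 185 TPM in siNC. Neither pair of groups overlapped, and neither gene passed (0.13 ± 0.05 and -0.18 ± 0.06, adjusted p = 0.223 and 0.191). Nsf was at 385, 371 and 392.4 TPM in siCLAP and 399, 387 and 379 TPM in siNC, with overlap, and its interval of 2 standard errors ran from -0.09 to 0.08 on the log2 scale.

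Ratios between paired genes within a library, which do not depend on library scaling, were set side by side for 3 pairs chosen after their values were seen, so they are given without a test. The Cplx1 to Cplx2 ratio was 8.86, 9.40 and 7.82 in siCLAP and 6.77, 7.64 and 6.53 in siNC, without overlap. The Syt2 to Syt1 ratio was 1.21, 1.0 and 1.2 in siCLAP and 1.06, 0.839 and 0.883 in siNC. Syt2 thus exceeded Syt1 in all siCLAP libraries and in siNC-1, while Syt1 was higher in siNC-2 and siNC-3. The Vamp1 to Vamp2 ratio was 0.793, 0.621 and 0.789 in siCLAP and 0.670, 0.632 and 0.646 in siNC. In these last pairs the groups overlapped, through siCLAP-2 for the VAMPs and through siCLAP-2 and siNC-1 for the synaptotagmins.

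**Figure D4:**
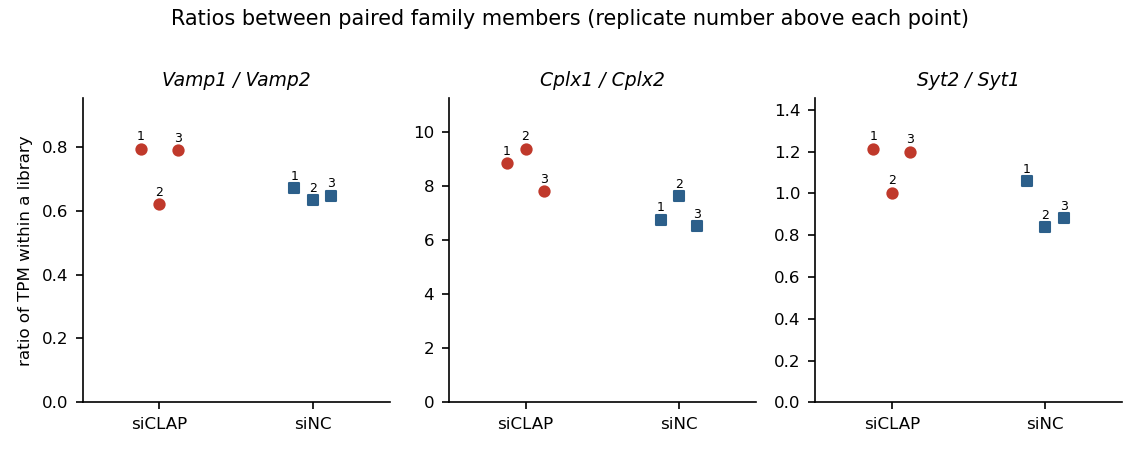
Ratio of the TPM of paired genes within each library, with axes from 0 and the replicate number above each point, siCLAP left and siNC right. The Cplx1 to Cplx2 ratio is at least 7.82 in siCLAP and at most 7.64 in siNC, and siCLAP-2 has the lowest Vamp1 to Vamp2 ratio at 0.621.

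Further genes of vesicle release outside the members were read in 7 lists, with 80 of 89 genes tested. In edgeR 0 of the 80 passed, 23 had an unadjusted p under 0.05 and DESeq2 called 6. Over all tested genes 0.293% passed in edgeR and DESeq2 called 3.18%. An unadjusted p under 0.05 in edgeR was reached by 17.0% of all tested genes (8.22% higher and 8.75% lower). In the list of priming and active zone genes 5 of 18 had an unadjusted p under 0.05, all lower in siCLAP. Unc13a, the main priming factor of neurons, was at 57.3, 52.6 and 64.1 TPM in siCLAP, against 71.2, 67.7 and 76.4 TPM in siNC (log2 fold change -0.29 ± 0.07, adjusted p = 0.0856). Unc13d and the active zone scaffold Bsn had estimates of -0.54 and -0.20. The list median was -0.07.

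Synaptic vesicle proteins went both ways, with 3 of 17 higher and 5 lower at an unadjusted p under 0.05 and a median of -0.01. Syn3 and Synpr (synaptoporin) had estimates of -0.29 and -0.23, and Slc17a7, the vesicular glutamate transporter VGLUT1, an estimate of 0.28 (adjusted p = 0.0929), with 235, 213 and 210 TPM in siCLAP and 200, 184 and 165 TPM in siNC. Of 12 tested Rab3 and Rab27 genes and effectors, Sytl2 stood at 0.17 and Rph3a and Rab27b at -0.15 and -0.20 (2 higher and 2 lower at an unadjusted p under 0.05, median -0.03). Of 10 genes of SNARE disassembly and chaperones, Sncb and Napg stood at 0.19 and 0.12 and Sncg at -0.13, again 2 higher and 2 lower, with a median of 0.04. The Golgi and endosome SNAREs outside the rule had 12 of 12 estimates above 0 and 10 to 12 in the alternatives (median 0.06), led by Sec22b at 0.17 ± 0.05, the 1 gene with an unadjusted p under 0.05. Over all tested genes 9473 of 19141 estimates were above 0. Other Sec1/Munc18 proteins had 1 of 5 at an unadjusted p under 0.05, Vps33a at -0.11, and the extended synaptotagmins and ferlins had 0 of 6.

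Lists of neuron type markers were read beside these genes. The 7 non-peptidergic nociceptor markers all had lower TPM in each siCLAP library than in each siNC library, 4 of them past edgeR's test, with summed levels of 1325 to 1403 TPM in siCLAP and 1630 to 1721 TPM in siNC. The 8 markers of myelinated mechanoreceptors and proprioceptors summed to 3072 to 3415 TPM in siCLAP and 2663 to 3057 TPM in siNC, with 7 of 8 estimates above 0 and 1 past the test. The 5 peptidergic nociceptor markers summed to 4138 to 4468 TPM in siCLAP and 4046 to 4204 TPM in siNC, with overlap, 3 of 5 estimates above 0, 0 past edgeR's test and 1 at an unadjusted p under 0.05. The 10 pan-sensory neuron markers summed to 12689 to 13024 TPM in siCLAP and 12189 to 12454 TPM in siNC, with 0 past edgeR's test, 5 at an unadjusted p under 0.05, and 7 of 10 estimates above 0. Of other cells, the 6 myelinating Schwann cell markers had all estimates below 0 and 1 past the test (Egr2), and summed to 3289 to 3599 TPM in siCLAP and 3313 to 4384 TPM in siNC. The 6 satellite glia markers had 5 estimates above 0 and 1 past the test (Ednrb), with sums of 4322 to 4786 TPM in siCLAP and 3999 to 4375 TPM in siNC. The log2 ratio of the mean sums was -0.31, 0.21, 0.05 and 0.06 for the 4 neuron lists in this order. The edgeR log2 fold change, a different measure, was -0.34 for Syt6 and 0.17 for Vamp1. The part of cell type makeup in the values of the members was not tested.

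**Figure D5:**
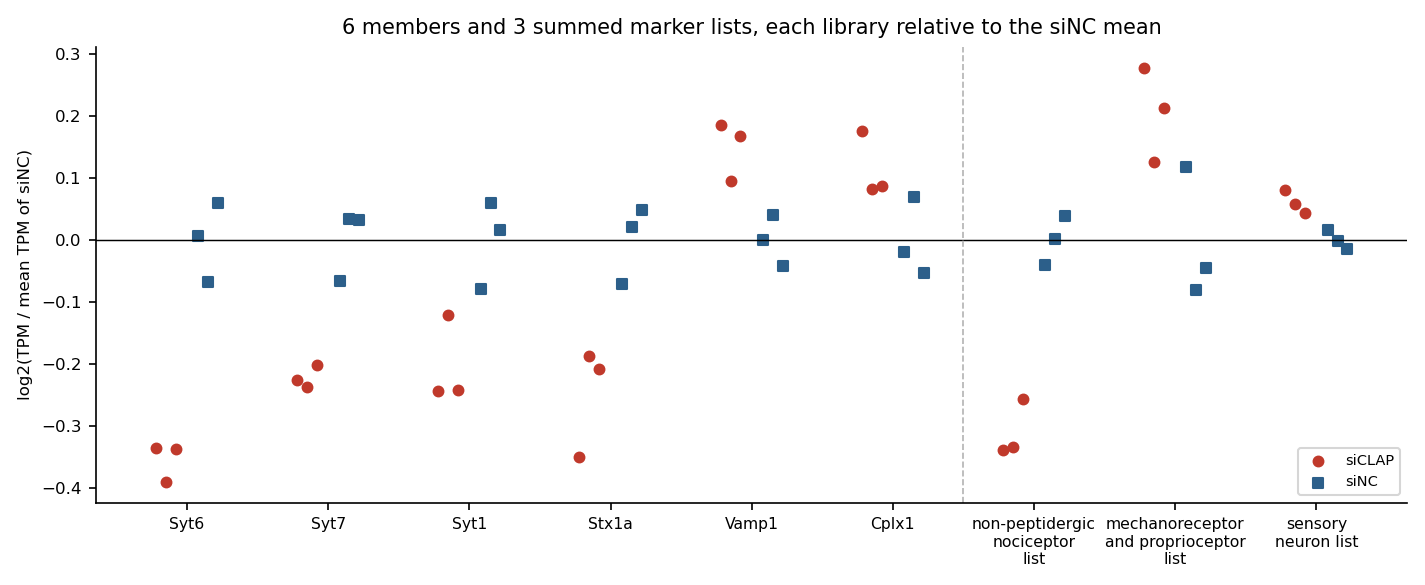
Log2 of each library's TPM over the mean of the siNC libraries, for 6 members (left of the dashed line) and for the summed TPM of 3 marker lists (right), siCLAP as red circles and siNC as blue squares. Syt6, Syt7, Syt1, Stx1a and the non-peptidergic nociceptor list lie below siNC in all siCLAP libraries, and Vamp1, Cplx1 and the sensory neuron list above it. The peptidergic nociceptor list is not shown.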

How the data were processed

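Libraries were made from total RNA using a NEBNext Ultra kit, per the labels, a kit that does not mark strand. The submitters' processing notes list mm10 and the tools HISAT2 2.1.0, featureCounts 1.6.2 and FastQC 0.11.8. The sources used here do not give the annotation, the strand setting or how reads shared by genes were counted. The authors deposited a TPM value and an expected count per gene and library. The deposited expected counts were whole, within 1e-06, for 64.4% to 68.3% of genes in a library.

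Expected counts were rounded and tested with edgeR 4.0.16 (R 4.3.3), quasi-likelihood, TMM normalization, no covariate, on the 19141 genes averaging 1 TPM or more, with Benjamini-Hochberg adjustment over all of them and a threshold of 0.05. Standard errors were computed as the log2 fold change over the root of F. The common biological coefficient of variation was 6.78%. An exact permutation test of 3 against 3 cannot go below p = 0.1, so single genes were tested only in models fitted across all genes. Levels are TPM as deposited, mean ± SD over 3 libraries. Replicates differed by more than counting noise (mean chi-square per gene 4.11 to 9.14). The fit was tested on simulated data. Alternatives used limma 3.58.1, limma voom, DESeq2 1.42.0, other filters, scalings and pseudocounts, a replicate block and each library left out.

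Members, roles and lists were chosen with earlier results of these data known, and the interferon list was added after seeing the data. Values per library are given for members that passed, the 12 with the smallest p, the 10 most abundant and a neuronal exocytosis core of 13 genes chosen by name, 22 genes in all, with mean and SD or estimate for the others. Up to 3 genes of smallest p are named per further list. Some members are counted but not reported here by name. Gene positions and exon overlaps came from GENCODE M21, which held 54 of the 55 members.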

Additional observations from a re-analysis of the deposited data

How the results depend on the processing

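The direction of 18 of the 22 genes named by rule held in all 20 alternatives. Syt6 passed in 14, with adjusted p from 3.24e-07 (DESeq2) to 0.275 (limma on log2(TPM + 0.1)). The count of members changed was 1, with a range of 0 to 1 when 1 library was left out (0 without siNC-3 or siCLAP-1), 0 with limma on log2(TPM) at pseudocounts of 0.5, 0.1 and 1, 0 without siNC-3 and siCLAP-2, 4 with no TPM minimum (Syt1, Syt6, Syt7 and Stx1a, all lower) and 5 in DESeq2 (those 4 and Vamp1, higher). For all genes the count of 56 became 0 in each limma setting, 608 in DESeq2, 133 with robust settings, 835 with no TPM minimum, 118 at a mean TPM of at least 5, 13 without siNC-3 and siCLAP-2, and 0 to 340 with 1 library left out, 4 without siNC-3. Settings with another filter tested another number of genes. As shares of the genes tested in each setting, the 56, 608, 835 and 118 were 0.293%, 3.18%, 2.75% and 0.854%. For the further vesicle genes, 80 of 89 tested at the TPM minimum, the count of 0 became 6 in DESeq2 and 0 to 1 with 1 library left out. It became 7 with no TPM minimum, a setting that tested more of the 89. The members' median log2 fold change of 0.00087 was -0.0182 in limma at each pseudocount and -0.0112 to 0.0255 with 1 library left out. Members at an unadjusted p below 0.05 numbered 17, 10 in limma on TPM and 9 without siNC-3 and siCLAP-2. The cause was not tested.

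Deviations of same-numbered libraries of the 2 groups correlated at 0.125, 0.0264 and -0.0649, against -0.204 to 0.157 for libraries with different numbers. With 3 libraries a group these values cannot decide whether the numbers pair the libraries. With the replicate number as a block 1 member (Syt6, adjusted p = 0.0191), 203 of all genes and 2 of the further vesicle genes passed.

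Signs turned for 4 genes whose estimates lay near 0. Vamp2 was at -0.0182, -0.0182 and -0.0182 in limma at the 3 pseudocounts, -0.00765 in limma voom, -0.00176 with no TPM minimum, -0.00598 at a mean TPM of at least 5, -0.00291 with upper quartile scaling, -0.00183 with the replicate block, -0.114 without siNC-3 and siCLAP-2, and -0.0919 to 0.0529 with 1 library left out. Vamp3 was at -0.00633, -0.00642 and -0.00623 in limma at pseudocounts of 0.5, 0.1 and 1, and -0.0390 to 0.0490 with 1 library left out. Stx7 was at -0.0114 without siNC-3 and siCLAP-2. With 1 library left out, Nsf ran from -0.0242 to 0.0197. Depth limits the low members, such as Syt13 and Syt10 with 20.5 to 157.5 counts a library.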
